A study of Mus musculus with 45 samples.

Results

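C3(1)-Tag mice carry the large T and small t antigens of the SV40 virus under the 5′ flanking region of the rat C3(1) gene, a promoter active in mammary epithelium, and their mammary tumors are widely used as a model of basal-like breast cancer. The 5 arrays labelled C3(1)/SV40 T/t-antigens, out of 45 arrays of mammary tumor DNA, were compared with the 40 arrays of the other 7 models. Those models were MMTV-c-Myc (n = 5), MMTV-PyMT (n = 9), MMTV-Her2/neu (n = 5), MMTV-H-Ras (n = 5), MMTV-Wnt1 (n = 5), BRCA1fl/fl;p53+/-;MMTV-cre (n = 5) and p53fl/fl;MMTV-cre transplant (n = 6), below called BRCA1-/-;p53+/- and p53-/-. The mouse mammary tumor virus promoter thus drives either the oncogene or the Cre recombinase in all of them, whereas C3(1) drives it in the 5 tumors described here. All 45 samples are labelled as primary invasive mammary tumors of female mice, and strain and age are not given in the labels. Nothing in the labels says which tumors came from separate animals, so every p-value measures the spread between these samples.

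Large T antigen binds and inactivates p53 and the retinoblastoma proteins, so that E2F transcription factors are released, and small t antigen binds the phosphatase PP2A. A cell with inactive p53 tolerates broken and missegregated chromosomes, and mammary tumors of this model are known for amplification of distal chromosome 6. Array comparative genomic hybridization reads such changes as a log2 ratio of tumor over reference DNA at each probe, and a value of 0 stands for the centre of that array, here the median of its autosomal probes. The array has no probe for the viral antigens, so the model named in a label cannot be checked through its transgene.

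The direction of the ratios was taken from the authors' interval table. The labels give Cy5 to the tumor. The authors called 5412 intervals over all tumors and 99 in the C3(1)-Tag tumors, of which 755 and 68 passed a filter. Only these were compared, and 740 of the 755 (98.0%) and 64 of the 68 (94.1%) had the sign of Cy3 over Cy5. All values below are therefore Cy3 over Cy5. The probe noise, a robust SD estimated from the differences between neighbouring probes, was 0.178 to 0.243 in the C3(1)-Tag tumors and 0.159 to 0.476 in the others. At least 96.6% of the probes of every array were well above background. C3TAg2 was hybridized on slide 1 and C3TAg4 on slide 2, both shared with other models, and C3TAg_5RPT, C3TAg_7RPT and C3TAg_8_RPT lay on slide 14, which held no other array. For these 3 tumors slide and tumor cannot be told apart.

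Before any comparison, 2 of the 5 profiles needed a caution, because each was nearly matched by an MMTV-Her2/neu tumor. Over 2057 autosomal bins of 1 Mb, C3TAg_5RPT correlated with H2N53 at r = 0.960 and C3TAg_7RPT with H2N61 at r = 0.928, whereas the other 988 pairs of arrays ranged from -0.29 to 0.850 with a median of 0.081. The same state (gained, lost or neither) was called in 96.3% of the bins of the first pair and in 96.6% of those of the second. Outside chromosome 6 the correlations were 0.962 and 0.801. The files were not copies of each other, since the deviations of single probes from their segments correlated at 0.15 and 0.03 only. Whether these 2 arrays hold tumors of the model in their labels was not tested, and every value from them is that of the array so labelled. Over all bins the closest profile to C3TAg_8_RPT was also that of an MMTV-Her2/neu tumor, H2NA, at r = 0.703, followed by C3TAg_7RPT at 0.684. Outside chromosome 6 the order was reversed, with 0.549 for H2NA and 0.603 for C3TAg_7RPT. The 10 pairs of C3(1)-Tag arrays correlated at -0.216 to 0.684, with a median of 0.108. The comparisons between models are therefore also given without C3TAg_5RPT and C3TAg_7RPT where that changes them.

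The C3(1)-Tag tumors covered nearly the whole range of genomic change seen in the 45 tumors, from an almost unaltered genome to the most altered of all by the measure used here. A bin was counted as altered where most of its probes belonged to a segment whose mean was 0.2 or more in size. The altered share of the autosomal bins was 6.66% in C3TAg2, 0.0486% in C3TAg4, which is 1 bin, 56.4% in C3TAg_5RPT, 16.1% in C3TAg_7RPT and 84.0% in C3TAg_8_RPT. C3TAg_8_RPT ranked 1 of 45 and C3TAg4 ranked 43. Several chromosomes of C3TAg_8_RPT lay close to 0.2, and its share was 57.1% with the densest value of the probes as the centre, 62.6% with normexp (a model-based background correction), 66.7% with loess (a smoothing of the ratio over spot brightness), 55.9% in the authors' table and 41.5% at a threshold of 0.3. In the other 40 tumors the share ran from 0% to 76.9% with a median of 14.8%, so that 4 of the 5 C3(1)-Tag values fell inside that range. By model, the mean was highest in p53-/- tumors, 53.3% ± 23.0 (SD, n = 6), followed by BRCA1-/-;p53+/- with 36.7% ± 23.0 (SD, n = 5), MMTV-Her2/neu with 33.4% ± 22.8 (SD, n = 5) and C3(1)-Tag with 32.6% ± 36.1 (SD, n = 5), which differed from each other by less than their SDs.

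The mean of the C3(1)-Tag tumors exceeded that of the other 40 (22.8% ± 23.2, SD) by 9.86 percentage points (two-sided exact permutation test over 1221759 assignments, n = 5 and 40, p = 0.412, adjusted over 3 shares p = 0.618). Without C3TAg_8_RPT the difference was -2.97 points. The lost share was 9.44 points higher (exact adjusted p = 0.436) and the gained share 0.42 points higher (exact adjusted p = 0.949). Without C3TAg_8_RPT these differences were 3.07 and -6.04 points, and in the authors' table they were -2.78 and 10.9 points. The 2 C3(1)-Tag tumors on shared slides had a lower altered share, by 16.0 points, than the 6 other tumors of the same slides, a comparison with 16 assignments and a smallest possible p of 0.0625 (exact permutation test adjusted p = 0.469).

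**Figure D1:**
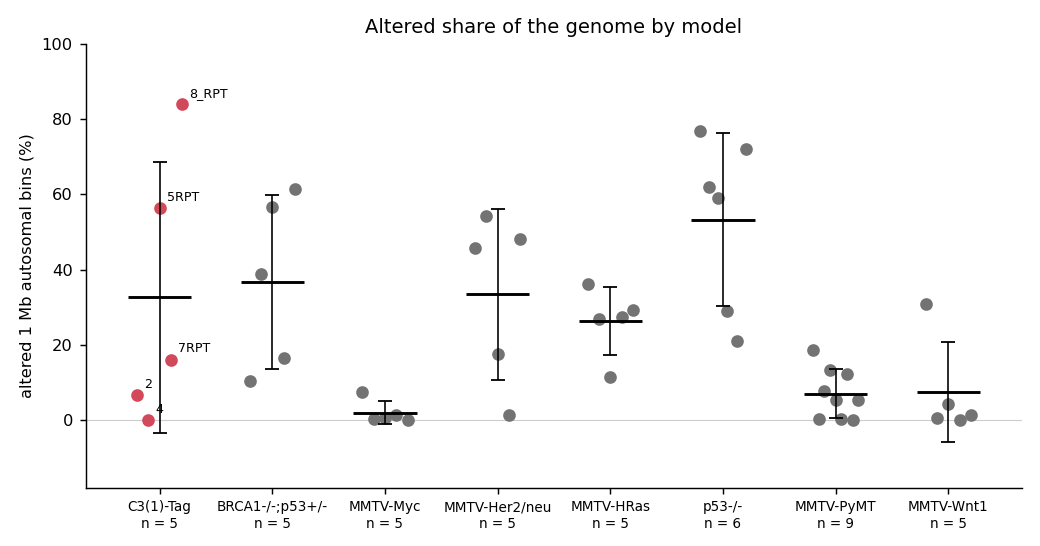
Altered share of the autosomal 1 Mb bins (percent) in each of the 45 tumors, by model; points are tumors, horizontal lines are means and error bars SDs. The C3(1)-Tag tumors, in red, run from 0.0486% (C3TAg4) to 84.0% (C3TAg_8_RPT), the largest SD of the 8 models.

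How the altered bins split into gains and losses depended on where an array was centred. In C3TAg_8_RPT, 39.8% of the bins were gained and 44.1% lost about the median of the array, but 55.9% gained and 1.26% lost about the densest value of its probes. The authors' interval table gave this tumor 55.9% gained and 0.0486% lost. In C3TAg_5RPT the values were 24.6% gained and 31.8% lost about the median, 7.58% and 36.9% about the densest value, and 68.2% and 0% in the authors' table. In C3TAg_7RPT they were 5.20% and 10.9% about the median, 1.02% and 20.7% about the densest value, and 11.1% and 10.5% in the authors' table. Over the 5 tumors, gains made up 42.9% of the altered share about the median, 49.8% about the densest value and 88.9% in the authors' table, against 59.6%, 62.5% and 72.4% in the other tumors. Gain and loss in these tumors therefore mean above and below the centre of the array, and which level is the ploidy of the tumor was not tested.

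C3TAg2 carried a loss of chromosome 4 and little else. The mean log2 ratio of the 2507 probes of chromosome 4 was -0.88 in this tumor, a ratio of 0.543, and 99.4% of the probes lay in lost segments, with means of -0.88 over the first 108 Mb and of -0.94 over the last 7.03 Mb. It was the lowest mean of any autosome in the 5 tumors and the lowest chromosome 4 mean of all 45. An interval of 10 probes, chr4:111482045-111955475 (mm8), was called at 0.35, and the same interval ranged from -0.54 to 4.15 in the other 40 tumors. Its probes were uneven, from -0.52 to 0.97 in C3TAg2, where probes of A430090E18Rik and A030013N09Rik both read exactly 0.0149. Single values were likewise repeated among its probes in C3TAg_5RPT (-0.0043) and C3TAg_7RPT (-0.0137). Whether C3TAg2 kept this stretch was not tested. The other calls in this tumor included gains of 5 to 8 probes on chromosomes 1, 3, 5 and 7, the highest of them on chromosome 3, with a mean of 1.22.

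C3TAg4 had the fewest changes. A single bin, chr3:45000001-46000000, was altered, and the segments called in it were 2 gains and 4 losses, each of 5 or 6 probes. The gains were 5 probes at 0.74 in that bin and 5 probes at 0.74 from S100a6 to S100a8, calcium-binding proteins of the S100 cluster on chromosome 3. In the latter a single S100a6 probe read 3.53. Neither distal chromosome 6 nor chromosome 4 departed from the centre in C3TAg4, with mean log2 ratios of 0.01 and 0.00.

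C3TAg_5RPT had whole-chromosome shifts and no segment of 1 or more in size. Chromosomes 1, 2, 7, 10 and 13 had means of -0.23, -0.43, -0.38, -0.40 and -0.38, and chromosomes 4, 5, 16, 17 and 18 had means of 0.23, 0.30, 0.35, 0.21 and 0.38. Chromosome 4 was thus above the centre in this tumor and below it in C3TAg2. On chromosome 6 the last 147 probes, chr6:141396220-149512282, were at 0.22 against 0.07 for the 52.6 Mb before them, a shallow step in the stretch that was amplified in the next 2 tumors.

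C3TAg_7RPT combined a high-level amplification of distal chromosome 6 with few other changes. It had 19 gained and 18 lost segments, and 14 of the gained ones reached 1 in size, all on chromosome 6. Chromosomes 7 and 10 had means of -0.26 and -0.38, and chromosome 15, home of the Myc gene, had a mean of 0.24. The loss on chromosome 7 ran from position 28121956 to 145060850, with a shorter one at 6084884 to 10610069, and 83.3% of the probes of the chromosome were in lost segments.

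C3TAg_8_RPT had the most gained and lost segments of the C3(1)-Tag tumors about the array median, 30 and 49. In the authors' table its altered share, 55.9%, was below that of C3TAg_5RPT, 68.2%. The chromosomes of C3TAg_8_RPT fell on 3 levels. Chromosomes 1 and 3 had means of 0.57 and 0.58, each the highest of the 45 tumors, and the proximal part of chromosome 6, chr6:5362921-58949975, was at 0.59. Chromosomes 2, 5, 8 and 15 to 19 had means between 0.16 and 0.21, and chromosomes 4, 7 and 9 to 14 between -0.34 and -0.29. Chromosome 6 was broken between a last gained probe ending at 99773956 and a first lost probe at 100094538 in Rybp, a subunit of a Polycomb complex, and the segments from there to 138642620 had means of -0.23 to -0.85, except 5 probes at Cntn6 with a mean of 0.32. The mean log2 ratio of chromosome X, which was left out of the tests, was 1.74 in this tumor, 0.86 to 1.06 in the other 4 and -0.03 to 1.38 in the 40 tumors of other models.

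**Figure D2:**
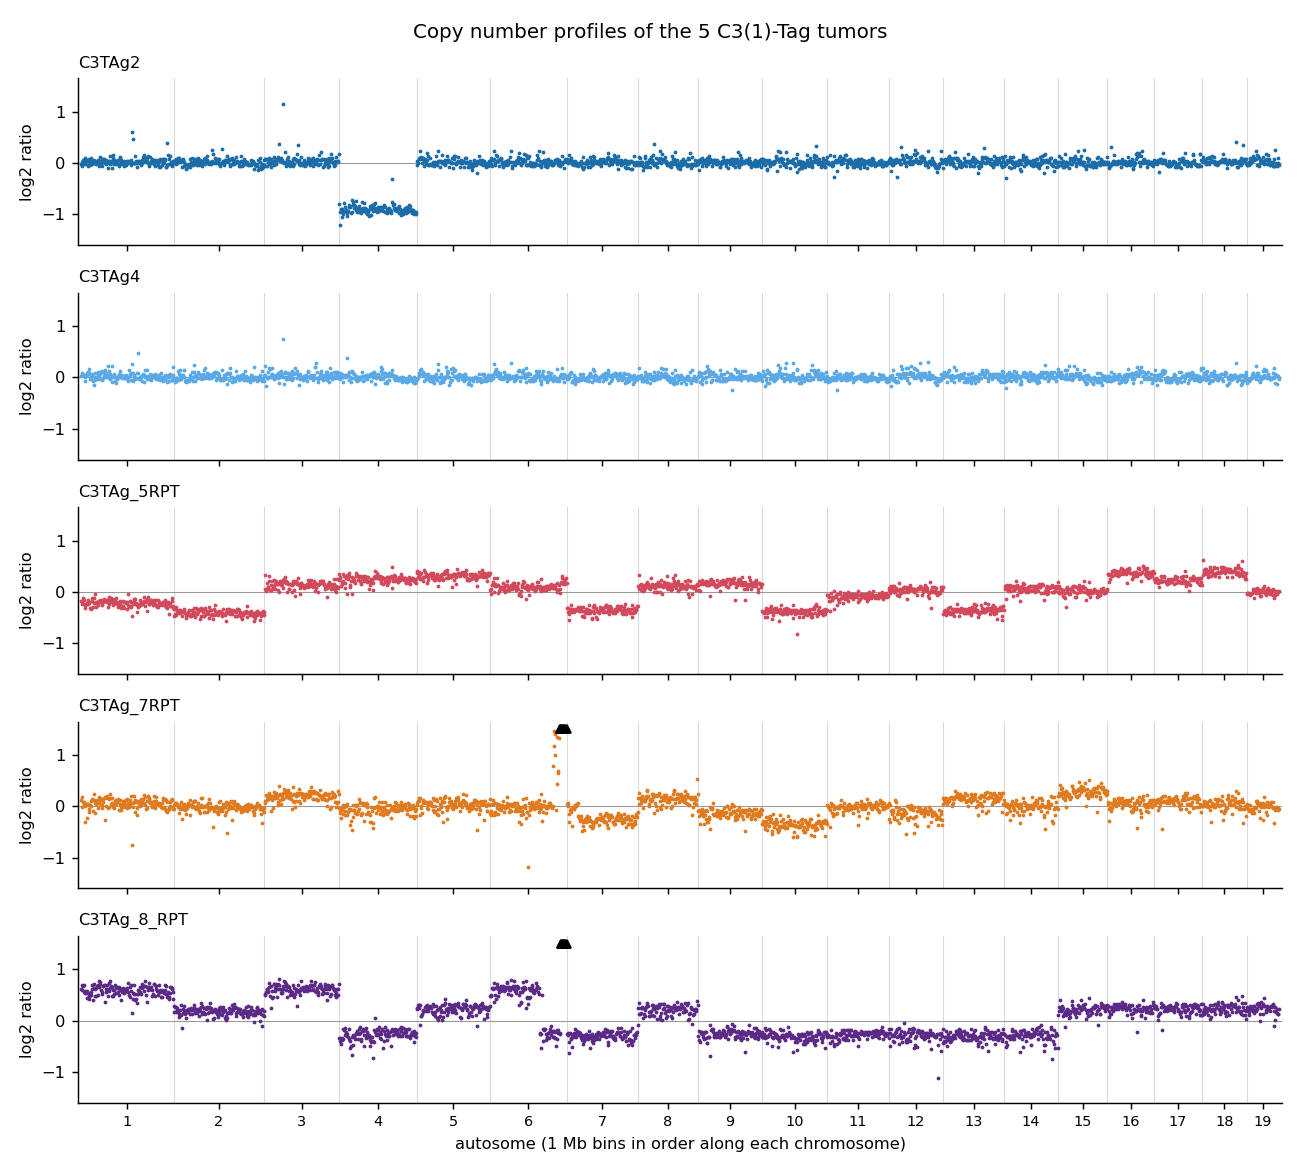
Median log2 ratio of each 1 Mb autosomal bin, in order along the chromosomes, in the 5 C3(1)-Tag tumors; black triangles mark bins above 1.5, drawn at 1.5. C3TAg2 shows the loss of chromosome 4 (mean -0.88), C3TAg4 is flat, and the triangles on distal chromosome 6 are confined to C3TAg_7RPT and C3TAg_8_RPT.

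The deepest focal loss was found in C3TAg_8_RPT on chromosome 12. The 18 probes of chr12:109056265-110039596 (mm8) had a mean of -1.24, a ratio of 0.424, against -0.33 for the chromosome as a whole. The interval was at -0.60 to 0.23 in the other 40 tumors, so that no other model reached this level. It runs from Evl, a regulator of actin filaments, through Degs2, the transcription factor gene Yy1, Slc25a29 and Wars, the tryptophanyl-tRNA synthetase gene, to Dlk1 and Rtl1, 2 imprinted genes that are expressed from the paternal copy. The Dlk1 probe read -1.43 in C3TAg_8_RPT and -0.15, -0.06, -0.41 and -0.43 in C3TAg2, C3TAg4, C3TAg_5RPT and C3TAg_7RPT. The Rtl1 probe read -1.68 in C3TAg_8_RPT and 0.01, -0.05, -0.35 and -0.79 in the same 4 tumors. Yy1, with 2 probes, averaged -1.14 there and -0.23 to 0.01 in the other 4.

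Several losses of 5 or 6 probes had identical ends in 2 of the tumors. The deepest were shared by C3TAg_7RPT and C3TAg_8_RPT, chr7:130874641-130935564 at Dmbt1, with a mean of -1.0 in either tumor, and chr10:70757027-71197549 at Ipmk, an inositol phosphate kinase gene, with means of -1.09 and -1.05. The same 2 tumors shared chr8:123629813-123972040 from Irf8 to Foxf1a (-0.55 and -0.37), and C3TAg_5RPT and C3TAg_7RPT shared chr3:103304698-103425826 from Bcas2 to Trim33 (-0.33 and -0.51). Identical ends were also found across slides, since C3TAg4 and C3TAg_5RPT shared chr12:86513549-86595457 from Jundm2 to Batf (-0.66 and -0.49). In C3TAg4 a single Batf probe of this segment read -2.90. The interval ran from -0.90 to 0.51 in the other models, with a median of -0.25. C3TAg2 and C3TAg_5RPT shared chr9:103854107-103924103 (-0.54 and -0.34), where the other models had a median of -0.51. Their median from Bcas2 to Trim33 was 0.11. Low values in the chromosome 12 and chromosome 9 intervals were thus not confined to the C3(1)-Tag tumors. The deviations of single probes from their segments correlated at 0.77 between C3TAg_7RPT and C3TAg_8_RPT and at 0.54 and 0.59 between them and C3TAg_5RPT. Over 988 pairs of arrays, these included, the median was 0.13 and the highest value 0.924, and C3TAg2 reached 0.64 with the MMTV-c-Myc tumor Myc_043508. The part of the slide in these small losses was not tested.

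High-level amplification of distal chromosome 6 was the strongest change in the C3(1)-Tag tumors. It was present in C3TAg_7RPT and C3TAg_8_RPT, whose segments of at least 1 in this stretch averaged 2.18 over 339 probes and 3.80 over 160 probes. The other 3 tumors had no segment of 1 or more there. A high-level amplicon of the same stretch was found in the MMTV-Her2/neu tumors H2N61 and H2NA, whose segments of at least 1 averaged 2.22 over 339 probes and 3.31 over 164 probes. None of the 167 spots from the common start to the end of the chromosome was saturated in any of these 4 tumors, so the ratios were not cut off by the scanner.

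**Figure D3:**
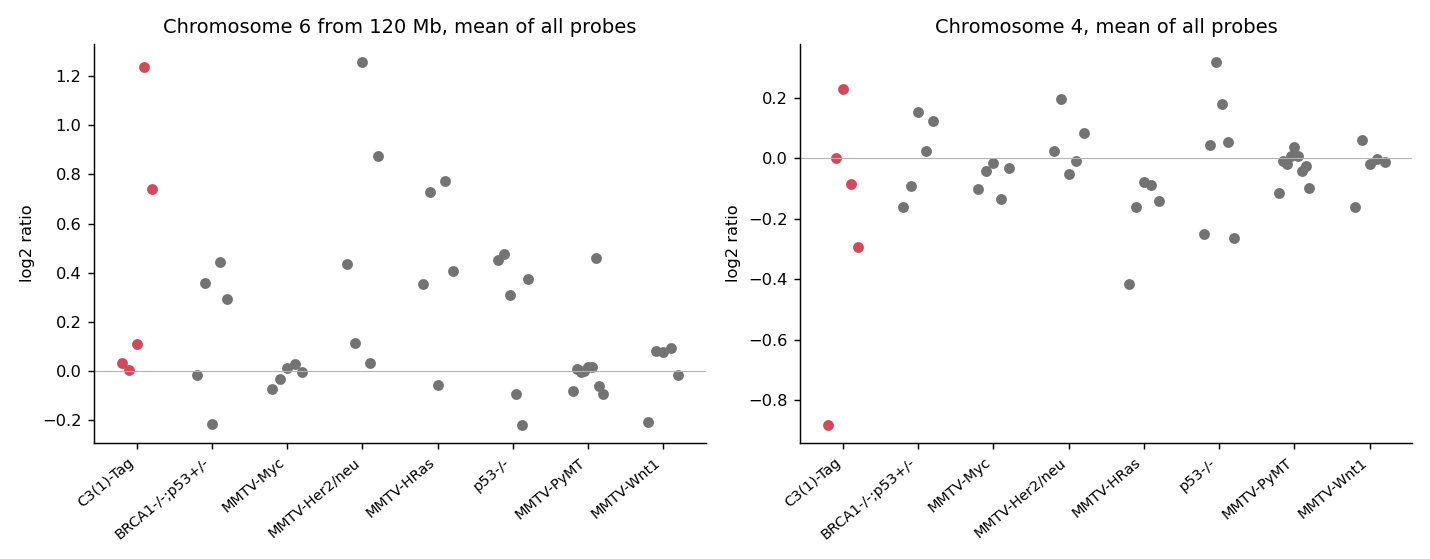
Mean log2 ratio of the probes of chromosome 6 from 120 Mb to its end (left) and of chromosome 4 (right) in each of the 45 tumors, by model; points are tumors and C3(1)-Tag tumors are in red. On the left C3TAg_7RPT (1.24) and C3TAg_8_RPT (0.74) lie above the other 3 C3(1)-Tag tumors, and on the right C3TAg2 has the lowest chromosome 4 mean (-0.88).

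Both amplicons reached the last probe of the chromosome and differed in how they began. In C3TAg_8_RPT, segments of at least 1 covered chr6:139559752-149512282, 9.95 Mb with 160 probes, and the change from -0.23 to 3.12 fell between the probe ending at 138642620 and that starting at 139559752 in Pik3c2g, a phosphoinositide kinase gene. The level was 2.14 over the next 1.26 Mb, 0.74 over 5 probes from Slco1a1 to Slco1a6, organic anion transporter genes, and 2.96 from there to 144946039. It rose to 4.62 at Bcat1, an enzyme of branched-chain amino acid breakdown, to 5.16 over chr6:145151750-146589173 with 36 probes from Casc1 to Tm7sf3, and was 4.81 up to 147683405 and 3.37 to the end. The segments of at least 4 covered 2.73 Mb, chr6:144956319-147683405.

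In C3TAg_7RPT the amplicon rose in steps over 21.5 Mb, chr6:127989915-149512282, with 339 probes in segments of at least 1. The first steps, from 126498637 on, were 0.98 and 1.37 and held the genes of cyclin D2 (Ccnd2, 1.14) and of the mitotic transcription factor Foxm1 (1.5), both of which were below the centre in C3TAg_8_RPT (-0.36 and -0.32). A stretch of 27 probes at -0.05 interrupted the gain, and 21 probes further on were at 0.24. From 139559752, the same probe at which C3TAg_8_RPT rose, the level was 2.92, and it fell to 1.08 over 7 probes around St8sia1 and rose to 4 or more over 1.53 Mb that began at 144234375 and included Bcat1.

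The segments of 4 or more of both tumors overlapped at Bcat1, Lrmp, Casc1 and Lmntd1, among other names. Bcat1 had log2 ratios of 4.73 in C3TAg_7RPT and 4.81 in C3TAg_8_RPT, Lrmp 4.68 and 4.61, Casc1 4.90 and 5.21, and Lmntd1, listed under its older name Ifltd1, 4.32 and 5.29. At a level of 1 or more both tumors shared 160 probes with 73 gene names.

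Across the 43 measured genes of a list of distal chromosome 6, the median log2 ratio was 0.06 in C3TAg2, 0.02 in C3TAg4, 0.15 in C3TAg_5RPT, 2.29 in C3TAg_7RPT and 3.09 in C3TAg_8_RPT. Of these genes, 39 were at 0.2 or more in C3TAg_7RPT and 28 in C3TAg_8_RPT, where 13 proximal ones were at -0.2 or less. Over all 20093 genes, 3658 were at 0.2 or more in C3TAg_7RPT, and 7125 were at 0.2 or more and 6683 at -0.2 or less in C3TAg_8_RPT. Further towards the end of the chromosome, Itpr2, an inositol trisphosphate receptor, was at 3.98 and 5.03, Fgfr1op2 at 4.17 and 5.33, and Pthlh, the parathyroid hormone-like hormone, at 4.05 and 4.89. Proximal to the common start, the Wnt co-receptor gene Lrp6 was at 1.13 in C3TAg_7RPT and -0.20 in C3TAg_8_RPT, and the phosphatase gene Ptpro at 1.93 and -0.21.

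The steps of C3TAg_7RPT were nearly those of H2N61. Of its 19 segment boundaries on distal chromosome 6, 15 lay within 1 probe of a boundary of H2N61, against 4 for C3TAg_8_RPT and 2 for H2NA. Over the 165 probes from 139 Mb to the end, the values of C3TAg_7RPT correlated with those of H2N61 at r = 0.948, with a median absolute difference of 0.165, and with those of C3TAg_8_RPT at 0.735, with a median absolute difference of 1.01. C3TAg_8_RPT correlated with H2N61 at 0.698 and with H2NA at 0.614, and C3TAg_7RPT with H2NA at 0.305. These correlations are across probes of the same chromosome, which are not independent.

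**Figure D4:**
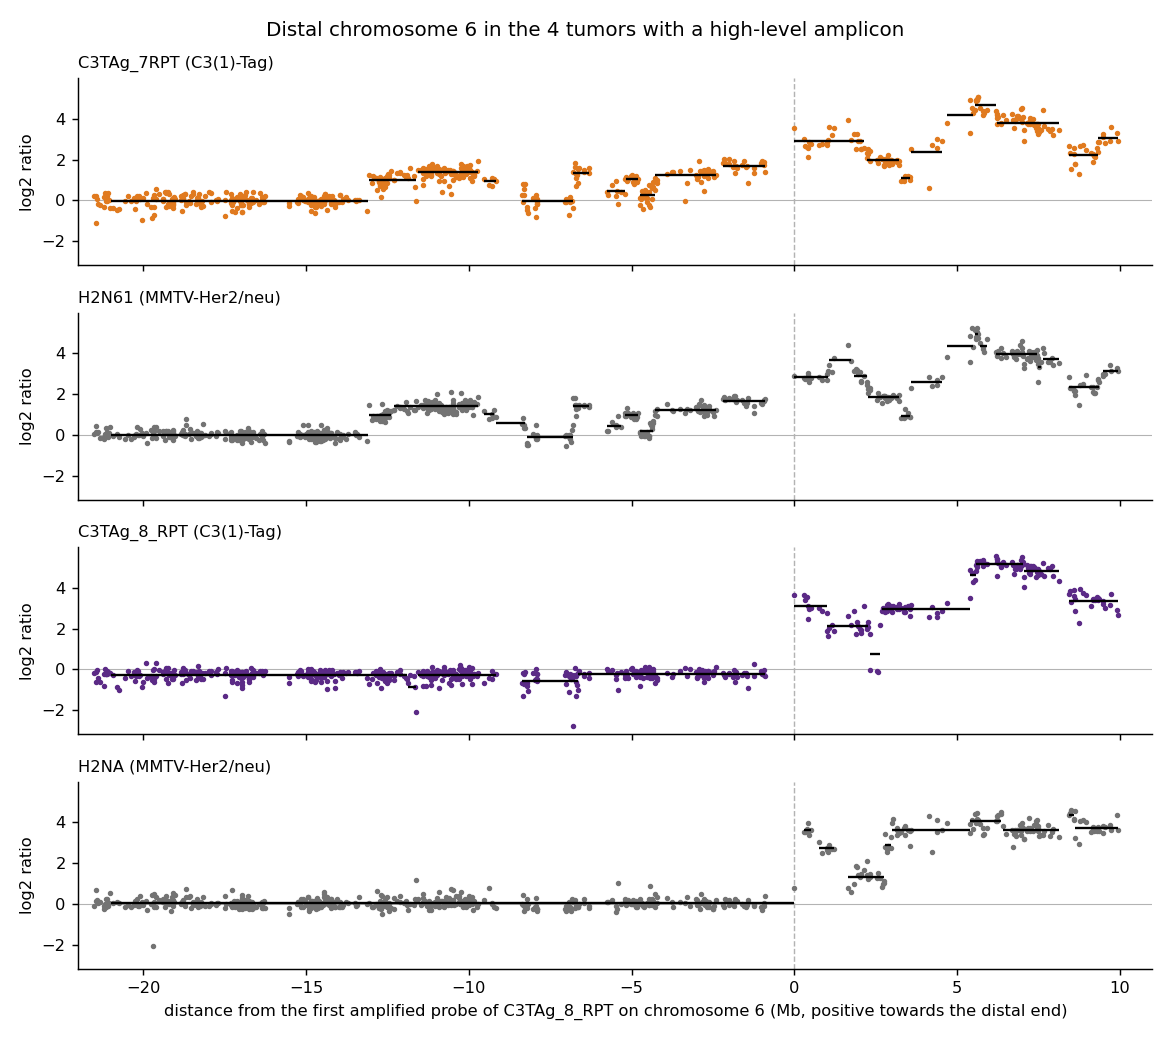
Log2 ratio of each probe (points) and segment means (black lines) on distal chromosome 6 against the distance in Mb from the first amplified probe of C3TAg_8_RPT (dashed line at 0), in C3TAg_7RPT, H2N61, C3TAg_8_RPT and H2NA. C3TAg_7RPT and H2N61 share the steps that begin before this point, and C3TAg_8_RPT rises from -0.23 to 3.12 in a single step.

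As a group the C3(1)-Tag tumors could not be told from the other models on distal chromosome 6. The mean log2 ratio from 120 Mb to the end was 0.03 in C3TAg2, 0.01 in C3TAg4, 0.11 in C3TAg_5RPT, 1.24 in C3TAg_7RPT and 0.74 in C3TAg_8_RPT, and -0.22 to 1.26 in the other 40, a difference of 0.24 (two-sided exact permutation test, n = 5 and 40, p = 0.142, adjusted over 20 regions p = 0.594). Without C3TAg_7RPT the difference was 0.04, and without both C3TAg_5RPT and C3TAg_7RPT it was 0.08 (exact adjusted p = 0.990). On the 2 shared slides it was -0.20. At least 10% of the probes were in gained segments in C3TAg_5RPT, C3TAg_7RPT and C3TAg_8_RPT, that is 3 of 5 (60.0%, with an exact 95% interval by Clopper-Pearson of 14.7 to 94.7%) and in 17 of 40 others (42.5%, 27.0 to 59.1%; Fisher's exact test p = 0.642, adjusted over 40 counts p = 1). The others included 5 of 5 MMTV-Her2/neu, 4 of 5 MMTV-H-Ras, 4 of 6 p53-/- and 3 of 5 BRCA1-/-;p53+/- tumors. Without C3TAg_5RPT and C3TAg_7RPT, 1 of 3 C3(1)-Tag tumors was left with a gain.

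Chromosome 4 was lower in the C3(1)-Tag tumors by 0.18, and this rested on C3TAg2. The means were -0.88 in C3TAg2, 0.00 in C3TAg4, 0.23 in C3TAg_5RPT, -0.08 in C3TAg_7RPT and -0.29 in C3TAg_8_RPT, against -0.41 to 0.32 with a median of -0.02 in the other 40 (two-sided exact permutation test, n = 5 and 40, p = 0.0595, adjusted over 20 regions p = 0.594). Within the 2 shared slides the difference was -0.43 (exact adjusted p = 0.987). Without C3TAg2 it was -0.01, and without C3TAg_5RPT and C3TAg_7RPT it was -0.36 (exact adjusted p = 0.160). A loss of at least 10% of the probes was called in 2 of 5 C3(1)-Tag tumors (40%, 5.27 to 85.3%) and in 6 of 40 others (15%, 5.71 to 29.8%; Fisher's exact test p = 0.211, adjusted p = 1). With the densest value as the centre, or in the authors' table, C3TAg2 alone had the loss.

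The tumor suppressor candidates of chromosome 4 followed the chromosome. Of the 16 measured genes of that list, 16 were at -0.2 or less in C3TAg2 and 11 in C3TAg_8_RPT, whereas 12 were at 0.2 or more in C3TAg_5RPT. Over all 20093 genes, the same counts were 2682, 6683 and 5000. The medians of the list were -0.87 in C3TAg2, 0.01 in C3TAg4, 0.27 in C3TAg_5RPT, -0.10 in C3TAg_7RPT and -0.27 in C3TAg_8_RPT. The locus of the p16 and p19ARF tumor suppressors, Cdkn2a, was at -0.96, -0.07, 0.50, 0.04 and -0.12 in these tumors in turn, and at -0.76 to 0.30 in the others. Its difference from the other models was -0.08 (limma adjusted p = 0.856). Trp73, a p53 relative with a single probe, was below the centre in all 5 tumors (-0.73, -0.24, -0.89, -1.54 and -1.15) and ranged from -1.69 to 3.26 in the others (difference -1.53, SE 0.46, limma adjusted p = 0.419). With normexp the difference was -0.07, with loess it was -1.09, and the probe was not among those well above background on every array. It lay below the chromosome 4 mean in C3TAg4, C3TAg_5RPT, C3TAg_7RPT and C3TAg_8_RPT and above it in C3TAg2, and the part of the single probe or of slide 14 in this was not tested.

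Losses of chromosomes 7 and 10 recurred in the tumors of slide 14. Bins lost in 3 C3(1)-Tag tumors numbered 216, or 10.5% of the bins, among them 102 bins of chr7:28000001-145000000 and 112 of chr10:3000001-130000000, and in each of these runs the 3 tumors were C3TAg_5RPT, C3TAg_7RPT and C3TAg_8_RPT. Chromosome 7 had means of -0.38, -0.26 and -0.33 in them, and chromosome 10 of -0.40, -0.38 and -0.34, against 0.00 to 0.03 in C3TAg2 and C3TAg4. The same bins were lost in 7 to 11 of the other 40 tumors on chromosome 7 and in 5 to 13 on chromosome 10. By chromosome, the loss was seen in 3 of 5 against 10 of 40 for chromosome 7 (Fisher's exact test p = 0.136, adjusted p = 1) and in 3 of 5 against 13 of 40 for chromosome 10 (Fisher's exact test p = 0.330, adjusted p = 1). Without C3TAg_5RPT and C3TAg_7RPT, C3TAg_8_RPT was the only C3(1)-Tag tumor with either loss, 1 of 3. The calls also depended on the centre, since about the densest value 1.26% of the bins were lost in C3TAg_8_RPT, 20.7% in C3TAg_7RPT and 36.9% in C3TAg_5RPT, and the lost share by the authors' intervals was 0% in C3TAg_5RPT, 0.0486% in C3TAg_8_RPT and 10.5% in C3TAg_7RPT.

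Gains common to 3 tumors covered 11 bins, 9 of them at chr6:141000001-150000000 in the same 3 tumors and in 15 to 20 of the others. The remaining 2 were chr3:45000001-46000000, in C3TAg2, C3TAg4 and C3TAg_8_RPT and in 7 of the others, and chr5:82000001-83000000, in C3TAg2, C3TAg_5RPT and C3TAg_8_RPT and in 15 of the others. Without C3TAg_5RPT and C3TAg_7RPT, the chromosome 3 bin alone was gained in 3 tumors, and the 9 bins of chromosome 6 were gained in C3TAg_8_RPT only. No bin was gained or lost in 4 or 5 of the C3(1)-Tag tumors.

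**Figure D5:**
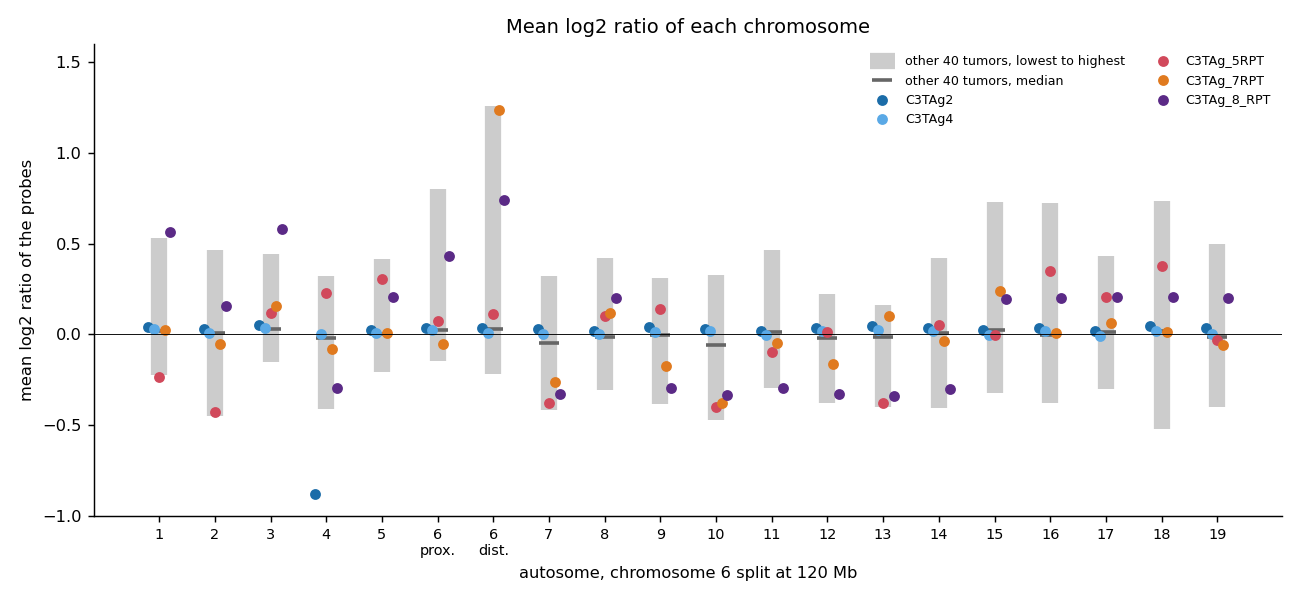
Mean log2 ratio of the probes of each autosome, with chromosome 6 split at 120 Mb, in the 5 C3(1)-Tag tumors (coloured points), against the lowest-to-highest range (grey bars) and median (dark ticks) of the other 40 tumors. C3TAg2 on chromosome 4 lies below the grey bars, C3TAg_8_RPT on chromosomes 1 and 3 above them, and C3TAg_5RPT on chromosome 1 (-0.23) just below.

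Of the 20 regions tested by mean log2 ratio, 0% were called higher and 0% lower in the C3(1)-Tag tumors by the exact permutation test, and 0 had an unadjusted p under 0.05. Of the 40 counts of gains and losses, 0% passed by Fisher's exact test, and again 0 had an unadjusted p under 0.05. The 5 tumors disagreed in sign on most chromosomes. Next to chromosome 4, chromosome 3 had the lowest p, with means of 0.05, 0.04, 0.12, 0.16 and 0.58 in C3TAg2, C3TAg4, C3TAg_5RPT, C3TAg_7RPT and C3TAg_8_RPT, of which C3TAg_8_RPT alone was called a gain (difference 0.12, exact adjusted p = 0.594).

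Among the 2057 bins, limma called 0% higher and 0% lower in the C3(1)-Tag tumors at an adjusted p of 0.05, and 111 had an unadjusted p under 0.05, 77 higher and 34 lower. The bin with the lowest p was chr3:45000001-46000000, with 5 probes at Pcdh10, a protocadherin gene. Its values were 1.16 in C3TAg2, 0.76 in C3TAg4, 0.23 in C3TAg_5RPT, 0.15 in C3TAg_7RPT and 0.68 in C3TAg_8_RPT, against -0.31 to 0.91 with a median of 0.08 in the others (difference 0.47, SE 0.12, limma adjusted p = 0.346). All 5 were above that median, and C3TAg2 alone was above the whole range. Without C3TAg_5RPT and C3TAg_7RPT this bin passed (limma adjusted p = 0.00704), and it was the only one that did. Next came chr4:26000001-27000000, with 3 probes (difference -0.42, SE 0.11, limma adjusted p = 0.346).

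Of 20093 gene names, 0% were called higher and 0.00498% lower, the latter being BC020022 on chromosome 12 alone, and 1814 had an unadjusted p under 0.05, 746 higher and 1068 lower. The mean of the 2 BC020022 probes was 0.29 in C3TAg2, 0.28 in C3TAg4, -0.56 in C3TAg_5RPT, -0.66 in C3TAg_7RPT and -0.85 in C3TAg_8_RPT, against a range of -0.78 to 2.54 in the others (difference -1.08, SE 0.18, limma adjusted p = 0.0112). By model, the mean was 2.28 in p53-/- and 2.05 in BRCA1-/-;p53+/- tumors. In the remaining models it ran from 0.03 (MMTV-Wnt1) to 0.52 (MMTV-PyMT), so the level of the others was set largely by those first models. The 3 low values were those of slide 14 and came from 1 of the 2 probes, which read -1.39, -1.24 and -1.57 there and 0.22 and 0.31 in C3TAg2 and C3TAg4, while the other read -0.13 to 0.36 in the 5 tumors. With slide as a random block the gene did not pass (limma adjusted p = 0.0678), nor with the 40 other tumors as 1 group (limma adjusted p = 0.718). The difference was 0.07 with only the probes that were well above background on every array. Without C3TAg2, 13 genes passed, without C3TAg4, 10 did, and with C3TAg_5RPT, C3TAg_7RPT or C3TAg_8_RPT left out, 0 did each time.

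The binding partners of the T antigens showed no common change. Of 13 measured genes, 7 were higher and 6 lower than in the other models, the median difference was 0.02 (-0.01 over all genes tested, of which 9425 were higher and 10668 lower) and 0 passed. The p53 gene Trp53 was at -0.12, -0.13, -0.02, 0.09 and -0.16 in C3TAg2, C3TAg4, C3TAg_5RPT, C3TAg_7RPT and C3TAg_8_RPT, within -0.53 to 0.40 of the others. The retinoblastoma gene Rb1 was at 0.28, 0.24, -0.08, -0.62 and -0.55 (others -0.78 to 1.26, difference -0.37, SE 0.20, limma adjusted p = 0.578). The Rb1 difference was -0.07 with normexp, -0.20 with loess and -0.24 without C3TAg_5RPT and C3TAg_7RPT. Its relative Rbl2 was at -0.19, -0.01, 0.27, 0.35 and 0.52 (others -0.57 to 0.63), and Fbxw7, which encodes a ubiquitin ligase subunit bound by large T, at 0.30, -0.04, 0.21, 0.48 and 0.89.

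Among 26 measured E2F and cell cycle genes downstream of Rb, 10 were higher and 16 lower, with a median difference of -0.05, and 0 passed. In C3TAg2, C3TAg4, C3TAg_5RPT, C3TAg_7RPT and C3TAg_8_RPT in turn, 5, 1, 10, 8 and 14 of them were at -0.2 or less. Those at 0.2 or more were 4, 5, 7, 5 and 3. Of all 20093 genes, 2682, 1826, 6130, 4916 and 6683 were at -0.2 or less, and 2575, 2096, 5000, 3658 and 7125 at 0.2 or more. The mitotic kinase gene Cdk1 was at 0.01, 0.01, -0.43, -0.62 and -0.66 (difference -0.25, SE 0.10, limma adjusted p = 0.478), and the cyclin E gene Ccne1 at 0.06, 0.30, -0.59, -0.74 and -0.67 (difference -0.33, SE 0.15, limma adjusted p = 0.515). These genes lie on chromosomes 10 and 7, and their low values were again those of slide 14. Without C3TAg_5RPT and C3TAg_7RPT the difference was -0.13 for Cdk1 and -0.10 for Ccne1.

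Of 28 measured genes of the Ras and MAP kinase pathway, 11 were higher and 17 lower, with a median difference of -0.02, and 0 passed. Nras was at 0.15, 0.31, 0.09, 0.37 and 0.68, and Hras at -0.01, -0.22, -0.35, -0.36 and -0.36. Grb2, the adaptor that links receptors to Ras activation, was at -0.24, -0.04, -0.13, -0.03 and -0.48 (others -0.36 to 1.5, difference -0.40, SE 0.17, limma adjusted p = 0.484). Its difference was -0.22 with normexp and -0.19 with probes well above background on every array.

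Of the 43 genes of distal chromosome 6, 33 were higher and 10 lower, with a median difference of 0.81, and 0 passed. Of the 16 genes of chromosome 4, 0 were higher and 16 lower, with a median difference of -0.22, and 0 passed. Without C3TAg2, Cdkn2a (0.12), Cdkn2c (0.15) and Jun (0.15) were on the higher side. Both lists hold neighbours on a chromosome that move together, and both were drawn up with the study's regions for this model in view. Among 27 genes often gained in mammary cancers, 11 were higher and 16 lower (median difference -0.05), and among 18 often lost, 9 were higher and 9 lower (median difference 0.00), with 0 passing in either. Myc was at -0.15, 0.21, 0.00, 0.42 and 0.26 (others up to 5.80), and Met, a receptor tyrosine kinase gene on chromosome 6, at 0.01, 0.03, 0.05, 0.05 and 0.72 (others up to 5.50). Of 16 measured genes of basal and luminal lineage, 5 were higher and 11 lower (median difference -0.06), and 0 passed.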

How the data were processed

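DNA of 45 mammary tumors was hybridized by the authors on Agilent 2-colour mouse arrays (mm8 probe positions) against spleen DNA per the methods, pooled spleen per the labels, whose reference channel also names normal mammary tissue. The file headers name Feature Extraction 9.5.1.1 and the processing notes 10.7. The deposited processed signal intensity of each dye is background-subtracted and dye-normalized, and the authors' log10 ratio is that of Cy5 over Cy3. The authors' interval table, made by aberration detection with a threshold of 6, gives the mean log2 ratio of 5412 intervals, with the count of probes in each as deposited, and the authors' p-value column was not used.

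Here the log10 ratio was turned to log2 of Cy3 over Cy5 after control and outlier spots were left out, and each array was centred on its autosomal median. Of 42235 probes, 40666 were autosomal and filled 2057 bins of 1 Mb with at least 3 probes (median 16). Cy5 signal over background was 6.42 to 8.35 in the C3(1)-Tag tumors and Cy3 5.58 to 14.7, and the number of arrays limits the precision. Each chromosome was split by circular binary segmentation (split statistic 6, at least 5 probes, Python 3.11.15, numpy 2.4.6, numba 0.67.0), and segments of at least 0.2 in size were gains or losses. Arrays were grouped by the model in the labels. Bins and genes (mean of a name's probes, 14683 of 20093 names matched to RefSeq symbols, 59 names on more than 1 chromosome) were tested with limma 3.58.1 in R 4.3.3 with all 8 models in the fit, C3(1)-Tag against the mean of the other 40 tumors, and Benjamini-Hochberg adjustment at 0.05. Single values were tested by exact permutation and counts of tumors by Fisher's exact test, with Clopper-Pearson 95% intervals.

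On simulated data with 2057 bins, limma recovered 85 of 100 bins shifted by 0.4 and 97 of 100 shifted by 0.8, and called 10 of 1857 unshifted ones. The simulated noise was independent between bins, and the same shift was added to every C3(1)-Tag tumor. In the data neighbouring bins moved together, and no bin was gained, or lost, in 4 or 5 of these tumors. The simulated rates therefore do not give the power for changes present in only some of the tumors. The segmentation recovered 27 of 60 segments of 20 probes shifted by 0.3, and 55 of 60 of 100 probes. The members and gene lists were chosen with earlier results of these data known. Named were listed genes with a probe, the most extreme named gene of segments of at least 1 in size, and genes at the ends of segments on chromosome 4 and distal chromosome 6. BC020022, Pcdh10 and the genes of the small segments of C3TAg2, C3TAg4 and slide 14 were named after their values were seen, as were Dlk1, Yy1, Degs2, Slc25a29 and Wars. Alternatives covered centring, background, loess, filters, thresholds, left-out tumors, slide and dye direction. Chromosomes X and Y were left out of the tests. 1 withheld item is counted in the tests and lists and not reported here.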

Additional observations from a re-analysis of the deposited data

Results flagged for a closer look

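In 8 of 65 values tested over the 5 C3(1)-Tag tumors (12.3%), the highest or lowest tumor stood apart from the other 4 by Dixon's criterion (critical value 0.71), which chance meets in about 1 in 20 groups of independent values. Some of these values were chosen for their level in these tumors, Evl among them, and others are neighbours on a chromosome, so that rate is no reference for their number. C3TAg_8_RPT accounted for 6 of them: its mean log2 ratio was 0.58 on chromosome 3, 0.43 on chromosome 6 up to 120 Mb, -0.30 on chromosome 14 and 1.74 on chromosome X, and its gene values were 0.72 for Met, which lies in the gained part of chromosome 6, and -0.89 for Evl, at the end of the deep loss on chromosome 12. C3TAg_7RPT stood apart in Ccnd2 (1.14) and Foxm1 (1.5), both in the part of its chromosome 6 gain that C3TAg_8_RPT lacked.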

How the results depend on the processing

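No comparison between C3(1)-Tag and the other 40 tumors gave a call that held under every alternative. The difference in gained share, 0.42 points, was 10.9 in the authors' table and turned negative with the densest value as centre (-1.31), normexp (-2.30), loess (-3.15), a threshold of 0.3 (-3.13), a split statistic over 8 (-0.436), without C3TAg_5RPT and C3TAg_7RPT (-0.204), also without H2N53 and H2N61 (-0.134) and within the 2 shared slides (-9.99), and ran from -6.04 to 3.90 with each tumor left out. The altered share was -16.0 within slides and -2.97 to 18 with each tumor left out. The lost share was -2.78 in the authors' table and -5.99 within slides. Distal chromosome 6 was -0.20 and chromosome 4 -0.43 within slides, and with the dyes as labelled they were -0.24 and 0.18. With each tumor left out, distal chromosome 6 ran from 0.04 to 0.35 and chromosome 4 from -0.28 to -0.01.

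The distal chromosome 6 gain was called in 1 C3(1)-Tag tumor without C3TAg_5RPT and C3TAg_7RPT (17 others), also without H2N53 and H2N61 (15 others), with 50% of the probes required (14 others) and with the dyes as labelled (2 others). At a threshold of 0.3, or about the densest value, the shallow gain of C3TAg_5RPT fell below the threshold. The chromosome 4 loss was called in 1 tumor about the densest value (6 others), in the authors' table (2 others) and with the dyes as labelled (4 others). Limma called 1 bin without C3TAg_5RPT and C3TAg_7RPT and 1 also without H2N53 and H2N61. It called 0 genes under normexp, loess, with probes well above background on every array, without C3TAg_5RPT and C3TAg_7RPT, also without H2N53 and H2N61, with the 40 tumors as 1 group and with slide as a random block, 0 to 13 with each tumor left out, and 1, with its sign turned, with the dyes as labelled. BC020022 was 0.068 with probes well above background (limma adjusted p = 0.873; over all alternatives 0.00222 to 1.00). Of the single-gene values under alternatives, 625 kept their direction and side of the threshold, 9 lost the call, all of BC020022, and 19 changed sign. Those that changed sign, other than BC020022, had passed no test. Trp53 turned to -0.012 with normexp and -0.013 with loess. Without C3TAg_5RPT and C3TAg_7RPT the values were Ccnd2 -0.28, Foxm1 -0.24, Trp53 -0.044 and Mdm2 0.0046, and also without H2N53 and H2N61 Ccnd2 -0.26, Foxm1 -0.20 and Trp53 -0.048. With each tumor left out, Ccnd2 ran from -0.23 to 0.15, Foxm1 from -0.19 to 0.26, Trp53 from -0.016 to 0.047, Cdkn2a from -0.24 to 0.12, Jun from -0.19 to 0.15, Cdkn2c from -0.17 to 0.15, Rtl1 from -0.39 to 0.033, Evl from -0.16 to 0.062 and Erbb2 from -0.21 to 0.011. The causes were not tested.

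Slide and scan date could not be fitted as fixed blocks, since BRCA1-/-;p53+/-, MMTV-H-Ras and p53-/- share no slide, and BRCA1-/-;p53+/- no scan date, with another model, which leaves the contrast over all models without an estimate. No paired analysis was possible because the replicate numbers only name the arrays of a model and tie no tumors together across models.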
